A study of Mus musculus with 124 samples.

Results

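The genes described here are 8 genes of cholesterol synthesis and its control, chosen by name: Hmgcs1, Idi1, Fdps, Fdft1, Sqle, Lss, Cyp51 and Insig1. All 8 were measured in both tissues of the study, among 17108 named genes in cerebral cortex and 13338 in liver, and no filter on low values removed any of them. The set is called one of synthesis and uptake, but none of the 8 takes up cholesterol, so uptake genes are given apart. RNA came from 62 mice aged 11 to 12 weeks, with a cortex and a liver library from each. Food was always at hand, and the cycle had 12 h of light followed by 12 h of dark. The labels give no strain, genotype or sex. Tissue of 26 undisturbed mice was taken over a baseline day at ZT (zeitgeber time, counted in h from lights on) 0 in 8 mice, at ZT3 in 3, and at ZT6, ZT12 and ZT18 in 5 each. The ZT0 group pools 4 mice labelled T0 with 4 labelled T24, from the start and the end of that day. Gentle handling kept the other 36 mice from sleeping during the first 6 h of light on the next day, and their tissue was taken in groups of 3, named by the hours since the start of the baseline day. These were T27 (3 h of deprivation, ZT3), T30 (its end after 6 h, ZT6), T36 and T42 (recovery on the same day, ZT12 and ZT18), then T48, T54, T60 and T66 on the day after, T72 and T78 on the next, and, after 7 days of recovery, T192 and T198. Each deprived group was set against the undisturbed mice of the same ZT.

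Cells make cholesterol from acetyl-CoA through the mevalonate pathway. When sterols in the membrane of the endoplasmic reticulum run low, the factor SREBP2 is carried to the Golgi by its escort SCAP, cut, and switches on most genes of the pathway, and Insig proteins hold that complex back when sterols are plentiful. Brain cholesterol is made in the brain itself, largely by glia, because lipoproteins of the blood hardly enter it, whereas the liver makes, takes up, secretes and turns into bile acids the cholesterol of the body and follows food intake. In the order of the pathway, Hmgcs1 encodes the cytosolic enzyme that makes HMG-CoA, Idi1 the isomerase of isopentenyl diphosphate, and Fdps the synthase of farnesyl diphosphate, where nonsterol products branch off. Fdft1 encodes squalene synthase, which commits the flow to sterols, Sqle the epoxidase that acts on squalene, Lss the cyclase that makes lanosterol, and Cyp51 the demethylase of lanosterol. Insig1 is no enzyme but the sterol-regulated brake on SREBP cleavage, and is itself a target of SREBP.

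Promoters were at hand for 5 members, and 4 of them are shown. Insig1, Lss and Hmgcs1 had the largest falls in cortex among these 5, and Cyp51 was the member that did not pass the test at T30. The promoters are RefSeq sequences on build GRCm38.p6, from 250 bases before to 50 bases after the transcription start. They are written 5′ to 3′ on the strand of the gene. Capitals mark the letters CCAAT (either strand, so also ATTGG) and TCACNCCAC, a form of the sterol regulatory element (either strand).
Insig1: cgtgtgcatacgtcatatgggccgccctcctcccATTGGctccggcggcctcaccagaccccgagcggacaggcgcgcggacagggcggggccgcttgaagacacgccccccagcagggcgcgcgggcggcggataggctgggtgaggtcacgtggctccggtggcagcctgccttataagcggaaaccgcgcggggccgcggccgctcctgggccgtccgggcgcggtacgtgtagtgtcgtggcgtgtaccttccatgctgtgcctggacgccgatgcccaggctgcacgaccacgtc
Lss: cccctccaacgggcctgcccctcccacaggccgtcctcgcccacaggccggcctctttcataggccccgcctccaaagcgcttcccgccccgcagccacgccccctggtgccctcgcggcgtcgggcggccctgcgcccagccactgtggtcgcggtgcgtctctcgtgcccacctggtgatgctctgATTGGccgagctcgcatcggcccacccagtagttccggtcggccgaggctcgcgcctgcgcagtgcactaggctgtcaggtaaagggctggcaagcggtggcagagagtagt
Hmgcs1: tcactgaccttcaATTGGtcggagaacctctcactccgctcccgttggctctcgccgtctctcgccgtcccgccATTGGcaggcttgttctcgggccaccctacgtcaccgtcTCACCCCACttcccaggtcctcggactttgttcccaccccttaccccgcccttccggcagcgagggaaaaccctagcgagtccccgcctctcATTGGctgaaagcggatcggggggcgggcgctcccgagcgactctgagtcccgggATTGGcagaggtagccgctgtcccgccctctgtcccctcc
Cyp51: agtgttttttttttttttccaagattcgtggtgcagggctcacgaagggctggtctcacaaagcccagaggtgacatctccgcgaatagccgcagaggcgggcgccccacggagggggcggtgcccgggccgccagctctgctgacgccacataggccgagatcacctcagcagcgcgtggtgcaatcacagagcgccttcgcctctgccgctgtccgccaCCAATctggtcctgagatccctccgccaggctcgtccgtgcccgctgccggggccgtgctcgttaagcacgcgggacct
They stand at chr5:28071162-28071461 (plus strand), chr10:76531355-76531654 (plus), chr13:119690101-119690400 (plus) and chr5:4104648-4104947 (minus). The table held promoters for 5 of the 8 members, these and Idi1, and none for Sqle, Fdps and Fdft1. Letters CCAAT were in 5 of the 5, against 37.4% of all 32851 promoters of the same length, and the GC box letters GGGCGG were in 5 of the 5, against 35.7%. TCACNCCAC was in 1, that of Hmgcs1 at 137 bases before the start (1.24% of all promoters), and the E-box CACGTG in 1, that of Insig1 at 101 bases before the start (7.15%). Both strands were searched, and no match of one motif overlapped a match of another in these promoters. Other forms of the sterol regulatory element were not searched for, so a promoter without this match is not shown to lack the element. These are matches of letters in a short window, and no binding was measured. A link between these letters and the changes of the genes was not tested.

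On GRCm38 the annotation (GENCODE M21) lists all 8 as protein coding: Hmgcs1 on chromosome 13 (119690379 to 119708260, plus strand), Idi1 on 13 (8885501 to 8892451, plus), Fdps on 3 (89093588 to 89101959, minus) and Fdft1 on 14 (63145150 to 63179578, minus). Sqle lies on 15 (59315077 to 59331192, plus), Lss on 10 (76531588 to 76557138, plus), Cyp51 on 5 (4081145 to 4104746, minus) and Insig1 on 5 (28071363 to 28078662, plus). Some reads of 3 members could belong to near-identical copies: of all 50-base windows in their transcripts, 26.2% in Fdps were shared with 8 other genes (among them Gm43738, which overlaps 26.7% of its exonic bases on the same strand), 17.7% in Idi1 with 4 and 9.38% in Fdft1 with 1. In the other 5 members the share was at most 2.17%. Exons on the opposite strand overlap 18.3% of the exonic bases of Fdft1 (Ctsb), 12.1% of Hmgcs1 (Gm48342), 9.22% of Idi1, 3.76% of Cyp51 (Akap9) and 3.53% of Lss. The kit named in the labels marks strand, but the sources used here do not say whether the counting used it, nor how shared reads were assigned, so values of Fdps, Idi1 and Fdft1 are uncertain to that extent.

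Levels below are deposited log2 CPM (reads of a gene scaled to a common library total, on a log2 scale), given per library or as mean ± SD. They are not divided by gene length, so levels are compared within a gene only, and within a tissue, because the tables were normalised separately. A change is deprived minus undisturbed, as log2 fold change ± standard error (SE) from limma with the label batch as covariate and a p adjusted over all named genes of the table, and passing the test means an adjusted p below 0.05. Before deposit 1 direction had been removed from the cortex values, which hold no average batch difference within groups. In cortex the change therefore equals the difference of the group means. In liver it includes the batch term and can differ from it. The CPM total of a library was 979177 to 1020370 in cortex and 919743 to 1070240 in liver, and the number of reads behind a value is unknown. By the labels, batch 2 holds every deprived mouse at T60, T66, T192 and T198, and batch 1 every deprived mouse at other times, and before deposit a factor with 3 levels that is not in the labels (50, 8 and 4 libraries) had been removed from the liver values. Liver p-values are therefore too small, and where the factor as a covariate changes a call this is said. The tissue labels fitted their markers: in cortex 3 of 5 hepatocyte markers were not in the table and the other 2 summed to at most 2.63 CPM at ZT6 and T30, and in liver Snap25, Slc17a7 and Gad1 were not in the table, while the other 2 neuronal markers summed to 6.18 to 10.4 CPM at T30 and 14.1 to 23.1 CPM at ZT6.

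Undisturbed mice of different hours were set against each other first, to see whether the pathway follows the hour. In cortex 7 of the 8 members differed over the 5 times (limma F test), against 41.9% of all genes, and all 8 had their lowest mean at ZT18, in the middle of the dark phase when mice are mostly awake. Insig1 had the widest range, 0.70 on the log2 scale or 1.63-fold: it stood at 6.17 ± 0.14 (SD, n = 5) at ZT6 and at 5.47 ± 0.17 (n = 5) at ZT18 (adjusted p = 5.96e-08). Its step from ZT0 down to ZT18 (0.36) exceeded the larger SD of the neighbouring groups, as did that from ZT6 to ZT12 (0.18), while ZT12, ZT3 and ZT0 did not differ beyond their spread. Hmgcs1, at the entry of the pathway, ran from 8.24 ± 0.08 at ZT6 to 7.72 ± 0.09 at ZT18 (adjusted p = 3.88e-08), and of its ordered neighbours ZT3 and ZT18 alone differed beyond their spread.
Sqle and Idi1 were also highest on average at ZT6, with ranges of 0.34 and 0.49 (adjusted p = 1.02e-05 and 0.00027). Lss (0.40, adjusted p = 4.64e-07) and Fdft1 (0.33, adjusted p = 5.55e-07) had their highest mean at ZT12, and Cyp51 at ZT0 with the smallest range of those that passed (0.27, adjusted p = 0.00175), a call lost with batch 1 controls alone (0.0803). For Sqle, Idi1, Lss and Cyp51 the highest group and the next did not differ beyond their spread, so the time of the peak is not resolved, while for Fdft1 they did (0.09). Fdps, highest at ZT12, had a range of 0.21 that did not pass (adjusted p = 0.294). The step down to ZT18 from the next lowest group was within the spread for Lss (0.06), Cyp51 (0.06) and Fdps (0.03). For these genes the time of the lowest level is not resolved either.

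**Figure D1:**
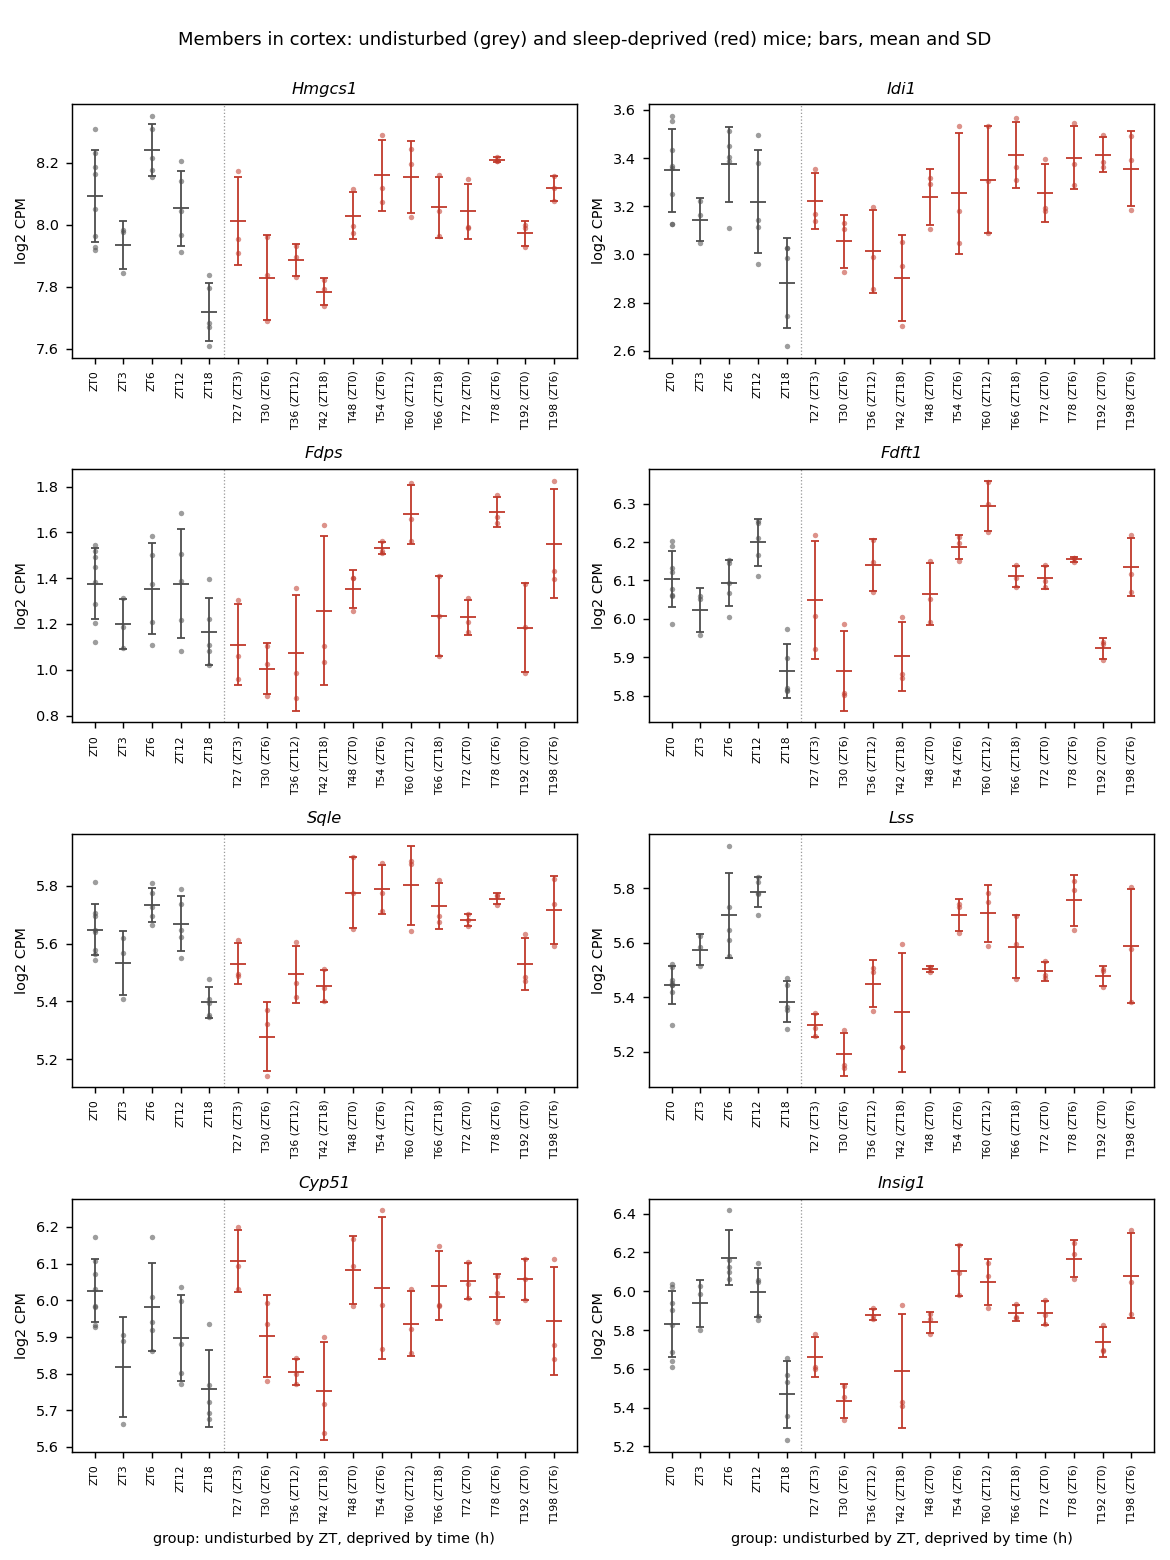
Levels of the 8 genes in cortex (vertical axes, log2 CPM, one scale per gene) in undisturbed mice by ZT (grey) and deprived mice by time in h (red); points are libraries, bars are mean and SD. All 8 genes have their lowest undisturbed mean at ZT18, for Lss, Cyp51 and Fdps within the spread of the next group. At T30 Insig1 (5.43 ± 0.09) stands near its ZT18 level and below all mice of ZT6.

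At the end of 6 h of deprivation (T30) the cortical pathway stood lower: 7 of the 8 members were lower and 0 higher, against 16.8% of all genes lower and 32.4% called in either direction. The median change of the 8 was −0.38, and that of all genes −0.0097. Members vary together across mice, so counts of members, here and below, are not counts of independent results. Insig1 showed the largest fall. Its 5 undisturbed libraries at ZT6 read 6.06, 6.10, 6.12, 6.16 and 6.42, and the 3 deprived ones 5.34, 5.45 and 5.51, so the groups did not overlap. The change was −0.74 ± 0.10 (SE), a level 1.67-fold lower (adjusted p = 1.21e-07).

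Enzymes of the squalene and lanosterol steps followed. Lss read 5.55, 5.61, 5.65, 5.73 and 5.96 in undisturbed mice and 5.14, 5.15 and 5.28 after deprivation, with no overlap (−0.51 ± 0.07, adjusted p = 4.25e-07). Sqle read 5.66, 5.69, 5.73, 5.77 and 5.81 against 5.14, 5.32 and 5.37, again apart (−0.46 ± 0.06, adjusted p = 2.61e-07). Fdft1 moved less, from between 6.01 and 6.15 to 5.80, 5.81 and 5.99, just below the lowest control (−0.23 ± 0.05, adjusted p = 0.00071).
At the start of the pathway, Hmgcs1 went from between 8.15 and 8.35 to 7.69, 7.84 and 7.96 (−0.41 ± 0.07, adjusted p = 2.11e-05), with no overlap. Idi1 and Fdps passed by less. Idi1 read 3.11, 3.39, 3.41, 3.45 and 3.51 against 2.93, 3.11 and 3.13, and its groups overlapped (−0.32 ± 0.12, adjusted p = 0.035). Fdps read 1.11, 1.21, 1.37, 1.50 and 1.58 against 0.88, 1.02 and 1.11, and its groups met without overlapping (−0.35 ± 0.14, adjusted p = 0.0418). Both calls rest on single libraries: that of Idi1 was lost without J76N2, T6N3, T6N4, T30S1 or T30S4 (adjusted p up to 0.174), and that of Fdps without J76N1, J76N2, T6N3, T30S3 or T30S4 (up to 0.175). Against the controls of batch 1 alone neither passed (adjusted p = 0.103 and 0.234), and 5 of the 8 members did. Cyp51 stood apart from the others: its deprived libraries read 5.78, 5.94 and 5.99 and overlapped the controls, which ran from 5.86 to 6.17 (−0.08 ± 0.08, 95% interval −0.23 to 0.08, adjusted p = 0.471).

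In bulk tissue fewer cells of a type and less RNA per cell cannot be told apart. Of the glial markers at T30, 0 of 5 astrocyte genes were called (summed level 943 to 1044 CPM after deprivation and 989 to 1075 CPM in controls) and 1 of 5 oligodendrocyte genes was lower (1847 to 2472 against 2022 to 2700 CPM). Of 4 microglial genes 1 was higher and 2 lower (181 to 186 against 190 to 196 CPM), and of 5 neuronal genes 1 was lower (7767 to 7938 against 7899 to 8557 CPM). Their part in the fall of the pathway was not tested. The levels at T30 can also be set beside the night level of undisturbed mice: Insig1 5.43 ± 0.09 at T30 and 5.47 ± 0.17 at ZT18, Fdft1 5.87 ± 0.10 and 5.86 ± 0.07, Hmgcs1 7.83 ± 0.14 and 7.72 ± 0.09. Lss and Sqle were below that level on average, with 5.19 ± 0.08 against 5.38 ± 0.08 and 5.28 ± 0.12 against 5.40 ± 0.05. Fdps was below it too (0.88, 1.02 and 1.11 against 1.02, 1.08, 1.11, 1.22 and 1.39). Idi1 and Cyp51 were above it on average. Idi1 read 2.93, 3.11 and 3.13 at T30 and 2.62, 2.74, 2.99, 3.03 and 3.03 at ZT18. Cyp51 read 5.78, 5.94 and 5.99 at T30 and 5.68, 5.69, 5.72, 5.77 and 5.94 at ZT18. These pairs are from different times of day and were not tested.

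After 3 h of deprivation (T27) the members did not move as a block. Of the 8, 1 was higher (Cyp51) and 1 lower (Lss), against 16.4% of all genes called, and the median change was 0.013. Cyp51 read 5.66, 5.89 and 5.90 in undisturbed mice at ZT3 and 6.03, 6.09 and 6.20 after deprivation, so all 3 were higher (0.29 ± 0.08, adjusted p = 0.012). Lss was already down, from 5.51, 5.58 and 5.63 to 5.26, 5.29 and 5.34 (−0.28 ± 0.08, adjusted p = 0.0121). Insig1 lay below all controls as well, at 5.60, 5.61 and 5.78 against 5.80, 5.99 and 6.03, but did not pass (−0.28 ± 0.11, adjusted p = 0.0773). Hmgcs1, Idi1, Fdft1 and Sqle had changes between −0.00091 and 0.078. With 3 mice a group these calls rest on few libraries: that of Cyp51 was lost without T3N4 or T27S3 (adjusted p up to 0.135) and that of Lss without T3N2 (0.0594). At ZT3 and T27 markers of the choroid plexus also differed, with 3 of 4 measured genes lower (5.54 to 7.01 CPM summed after deprivation and 9.53 to 125 CPM in controls), and 1 deprived library held hepatocyte markers at 12.9 CPM. Their part in the changes of the members was not tested.
The step from 3 h to 6 h was tested as the difference of the 2 effects. It was below 0 for all 8 members (−0.23 to −0.49), and none passed (smallest adjusted p = 0.0901, Sqle, which passed at 0.0399 without T3N2), with 0.00585% of all genes called.

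After 6 h of recovery the effect on Insig1 had shrunk. At T36 its level was 5.88 ± 0.03 (n = 3) against 5.99 ± 0.13 (n = 5) in controls of ZT12, and the effect had changed by 0.63 ± 0.14 from T30 (adjusted p = 0.00133), where 12.2% of all genes changed their effect. The effect on Sqle also shrank (0.28 ± 0.09, adjusted p = 0.0281), although this call was lost without J76N1, T12N1, T12N6, T30S4 or T36S1 (adjusted p up to 0.146) and against batch 1 controls (0.0945). The other 6 members did not pass this test, although Fdft1 did without T30S3 (adjusted p = 0.0431). Lss was the only member still called lower at T36 (12.5% of all genes called): 5.35, 5.49 and 5.51 lay below the controls, which read 5.70 to 5.84 (−0.34 ± 0.07, adjusted p = 0.00118). All 8 changes at T36 were below 0, with a median of −0.17, and a second member passed without T12N1, T36S1 or T36S2. At this time 0 of 5 oligodendrocyte markers were called (1931 to 2085 CPM summed after deprivation and 2047 to 2624 CPM in controls). Of the other markers 1 of 5 astrocyte genes (986 to 1110 against 949 to 1030 CPM) and 1 of 3 vessel genes (130 to 138 against 111 to 131 CPM) were higher, and 1 of 4 microglial genes (179 to 189 against 173 to 198 CPM) was lower. Their part in the change of Lss was not tested.
From T42 on, 0 of the 8 members passed at any time by limma. At T42 and T48 1.03% and 1.49% of all genes were called, the members' changes ran from −0.04 to 0.12 and from −0.11 to 0.13, and 0 and 1 of them had an unadjusted p below 0.05, against 12.2% and 13.2% of all genes.

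At T66, the second night after deprivation (ZT18), all 8 members were above their controls (0.07 to 0.53, median 0.31), and 7 had an unadjusted p below 0.05, against 9.51% of all genes. None passed after adjustment (adjusted p 0.0588 to 0.908), and no gene of the table did (0%). Because members correlate across mice in cortex (median r 0.544), 7 of them in the same 3 mice are not 7 independent results. Sqle came closest: its deprived libraries read 5.67, 5.70 and 5.82 and its undisturbed ones at ZT18 5.35, 5.35, 5.39, 5.41 and 5.48 (0.33 ± 0.07, adjusted p = 0.0588). Idi1 read 3.31, 3.36 and 3.57 against 2.62, 2.74, 2.99, 3.03 and 3.03 (0.53 ± 0.12, adjusted p = 0.0993). The T66 mice are all of batch 2, and only 2 of the 5 controls are. Without the lowest 20% of genes 1 member passed, and without the control T18N2 2 did. Without the batch term 4 passed, but in cortex that fit leaves the changes as they are and makes their p too small. Those 4 passes are therefore no support for a rise. At T54, T60, T72, T78, T192 and T198 0% of all genes and 0 members passed (0, 1, 0, 1, 1 and 0 members had an unadjusted p below 0.05, against 10.2%, 7%, 6.24%, 5.27%, 6.32% and 8.7% of all genes), and 7 days after deprivation the members' changes lay between −0.19 and 0.20.

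**Figure D2:**
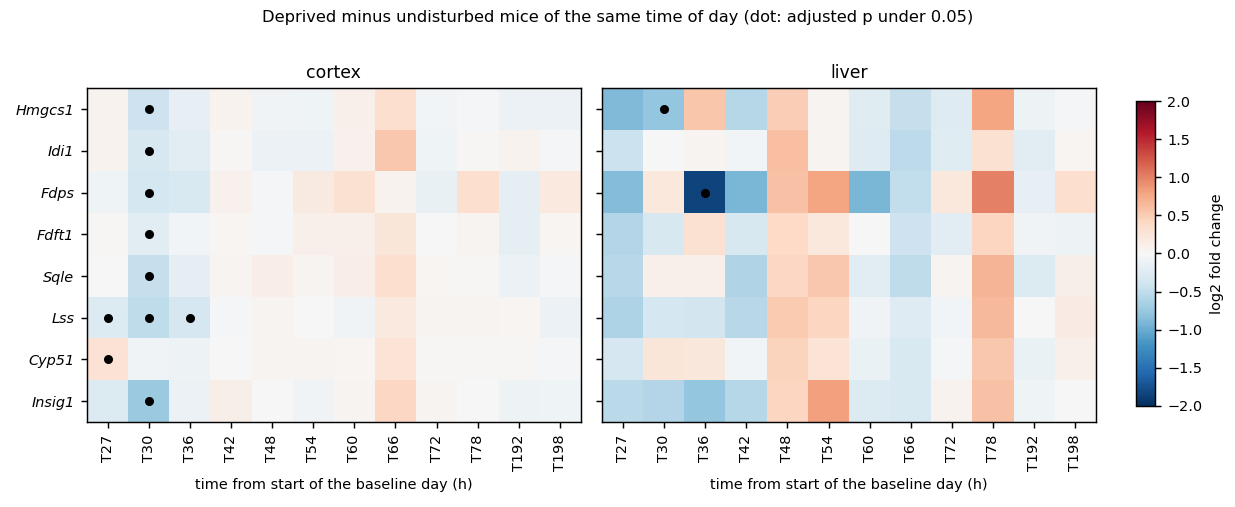
Log2 fold change of each member (rows) at the 12 deprived times (columns, h) against the controls of that ZT, in cortex and liver; colour gives the change and a dot an adjusted p below 0.05. In cortex the dots gather at T30 with 7 of the 8 genes, and in liver single dots mark Hmgcs1 at T30 and Fdps at T36.

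The rest of the pathway was followed through lists of genes. They were chosen with earlier results of these data known, and their counts leave out genes not reported here. Of 12 other synthesis enzymes in cortex at T30, 9 were lower and 1 higher (median −0.24), against 16.8% of all genes lower and 32.4% called in either direction. Acat2, which makes acetoacetyl-CoA for Hmgcs1, fell by most (−0.41 ± 0.06, adjusted p = 5.54e-07), and the late enzyme Dhcr7 was lower too (−0.31, adjusted p = 0.000683). The enzyme that was higher was the sterol isomerase Ebp (0.30 ± 0.07, adjusted p = 0.000702).

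Uptake and transport genes went both ways in cortex at T30, with 4 of 10 higher and 2 lower (median 0.03), against 32.4% of all genes called. Stard4, a carrier of sterols between membranes, was lower (−0.50 ± 0.07, adjusted p = 6.93e-07), as was Vldlr (−0.14, adjusted p = 0.0332, lost without J76N1, T6N2, T6N4, T30S1 or T30S3 with p up to 0.111 and against batch 1 controls with 0.0792). The receptor of apolipoprotein E and reelin Lrp8 (0.46 ± 0.07, adjusted p = 6.32e-07) and the lysosomal lipase Lipa (0.28 ± 0.06, adjusted p = 0.0001) were higher. Lrp1 (0.23, adjusted p = 0.00609) and Mylip (0.21, adjusted p = 0.0147) were higher too.
The shares called in the sensing, efflux and nonsterol lists lay below that of all genes (32.4%), so they do not set these lists apart. Among 8 sensing genes 1 was higher, Insig2, the relative of Insig1 that is not driven by SREBP (0.14 ± 0.05, adjusted p = 0.026), and 1 lower, the protease gene Mbtps2 (−0.13, adjusted p = 0.0429). Both calls were lost against batch 1 controls (adjusted p = 0.108 and 0.0559) and without single libraries, J76N1, T6N2, T30S3 or T30S4 for Insig2 (up to 0.102) and J76N2, T6N2, T6N4, T30S3 or T30S4 for Mbtps2 (up to 0.15). Srebf2 itself, the gene of SREBP2, did not pass (0.08 ± 0.06, adjusted p = 0.315), nor did Srebf1 (−0.17 ± 0.08, adjusted p = 0.104). Of 9 efflux and storage genes measured, 2 were higher, the cholesterol esterifier Soat1 (0.17, adjusted p = 0.0077) and the oxysterol receptor Nr1h3 (0.44, adjusted p = 0.0188, lost without T6N2 or T30S1 with p up to 0.0811 and against batch 1 controls with 0.0629). Of 9 genes of the nonsterol branches, 1 was higher, Nus1 (0.18, adjusted p = 0.0116), which serves dolichol synthesis and lost the call without T30S1 (0.0708).

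**Figure D3:**
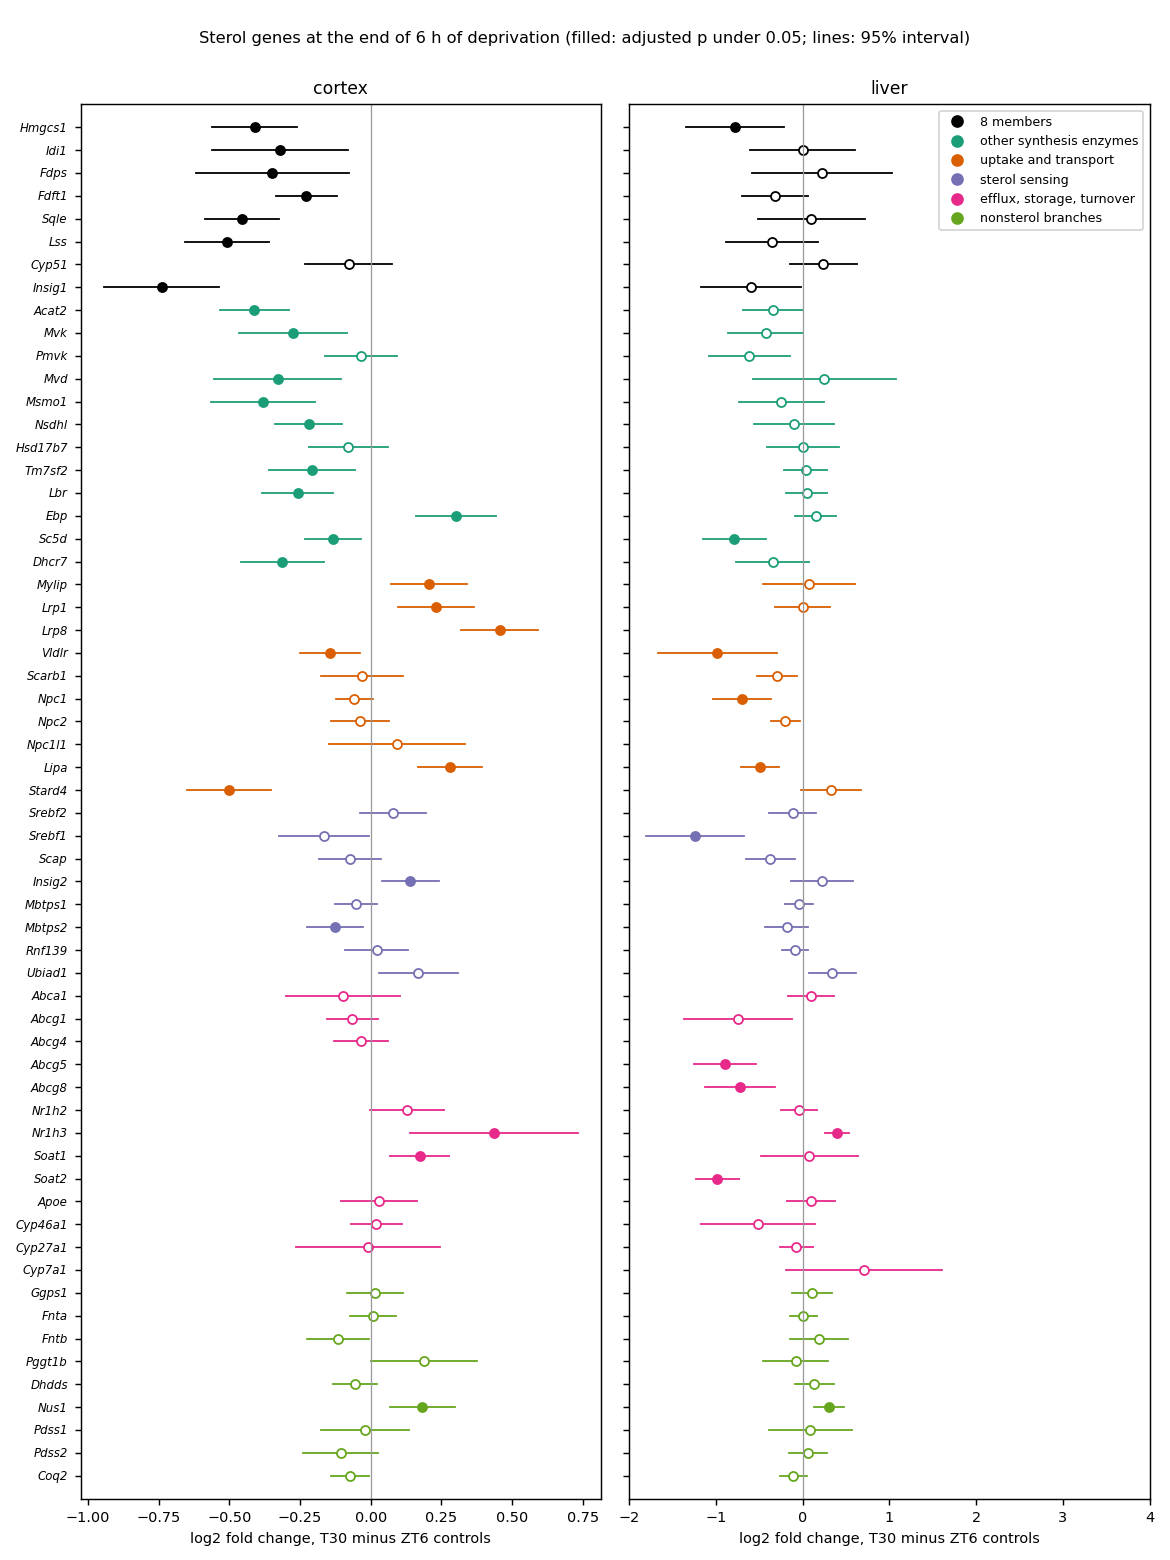
Change at T30 against undisturbed mice of ZT6 (horizontal axes, log2 fold change) for the members and 5 lists of related genes in cortex and liver; lines are 95% intervals and filled points have an adjusted p below 0.05, and the panels have different scales. In cortex 7 members, 9 of 12 other enzymes and Stard4 lie left of 0 with filled points, and the intervals in liver are mostly wider.

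In the liver of undisturbed mice 7 of the 8 members differed over the day, against 52% of all genes, with ranges from 0.56 to 2.07 among those that passed. Hmgcs1 had the widest range, 2.07 on the log2 scale or 4.19-fold (adjusted p = 1.23e-08). It read 6.97, 7.02, 7.29, 7.36 and 7.58 at ZT12, below every library of the other 4 times, and 9.31 ± 0.64 (n = 3) at ZT3. The step from ZT6 to ZT12 was the single one beyond the spread of its neighbours. Fdft1 (0.67, adjusted p = 0.00286) and Cyp51 (0.56, adjusted p = 0.0329) shared its highest mean at ZT3 and lowest at ZT12. Fdps (1.24, adjusted p = 0.0133), Sqle (0.93, adjusted p = 0.00719), Lss (0.89, adjusted p = 0.0076) and Insig1 (0.86, adjusted p = 0.0186) had their highest mean at ZT18, the time of their lowest mean in cortex, and their lowest at ZT6. Among these 7 genes the highest group exceeded the next beyond their spread for Lss alone (0.52). The step down to ZT6 was within the spread for Fdps (0.50), Sqle (0.05), Lss (0.17) and Insig1 (0.18), and so was that of Cyp51 down to ZT12 (0.12). Their lowest times are therefore not resolved, nor are those of Fdps and Lss in cortex. Insig1 stood at 9.23 ± 0.12 at ZT18 and 8.37 ± 0.14 at ZT6, and spread from 7.54 to 9.24 at ZT12. No neighbours in its order differed beyond their spread. Idi1 did not pass (adjusted p = 0.198). With the removed factor as covariate the call of Cyp51 was lost (adjusted p = 0.143), and with batch 1 controls alone 4 members passed. The Fdps call was lost without T6N3 (0.0589), that of Insig1 without T18N4 (0.055), and that of Cyp51 without T3N3, T3N4, T12N1 or T12N2 (up to 0.17).

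**Figure D4:**
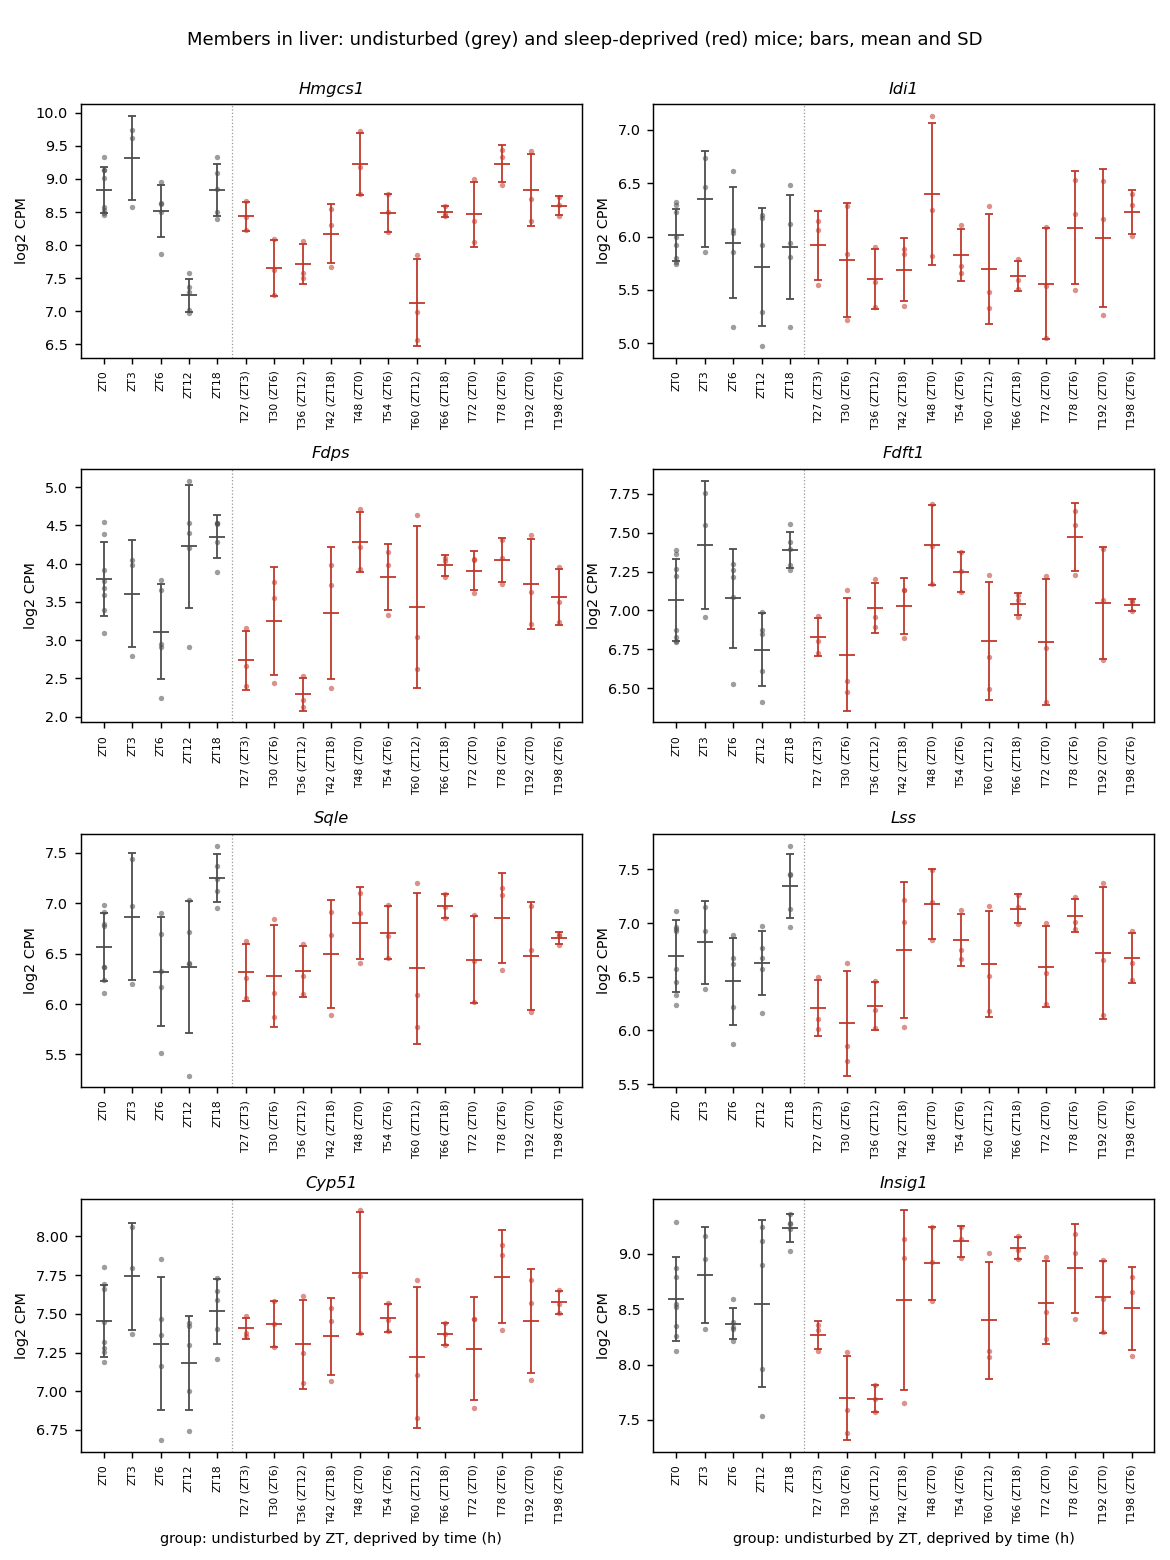
Levels of the 8 genes in liver (vertical axes, log2 CPM, one scale per gene) in undisturbed mice by ZT (grey) and deprived mice by time in h (red); points are libraries, bars are mean and SD. Hmgcs1 is lowest in undisturbed mice at ZT12 (7.24 ± 0.25), and the 3 libraries of Fdps at T36 lie below all 5 controls of ZT12.

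In liver deprivation gave few calls among the members. At T27 all 8 changes were below 0 (−0.34 to −0.88, median −0.57) and none passed, with 1.5% of all genes called and 3 members at an unadjusted p below 0.05, against 12.6% of all genes. Without the control T3N2, the lowest of the 3 for every member, 2 passed: Hmgcs1 (adjusted p = 0.0431) and Fdft1 (0.0493). At T30, 1 of the 8 was lower, against 15.8% of all genes called. Hmgcs1 read 7.25, 7.62 and 8.10 after deprivation and 7.87, 8.50, 8.62, 8.63 and 8.96 at ZT6, an overlap of 1 library (−0.78 ± 0.28, 1.72-fold lower, adjusted p = 0.0482). This call was lost against batch 1 controls (adjusted p = 0.114) and without J76N1, J76N2, T6N2, T6N4, T30S1 or T30S4 (up to 0.305). Insig1, the gene with the largest fall in cortex, read 7.38, 7.59 and 8.11 against 8.21, 8.32, 8.33, 8.39 and 8.59 in liver, with no overlap, and did not pass (−0.59 ± 0.29, adjusted p = 0.158).

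At T36, 1 of the 8 was lower, against 3.16% of all genes. Fdps read 2.12, 2.22 and 2.53 against 2.92, 4.21, 4.40, 4.54 and 5.08 at ZT12, and the groups did not overlap (−1.85 ± 0.40, 3.62-fold lower, adjusted p = 0.0053). It passed with the removed factor as covariate (adjusted p = 0.00778), against batch 1 controls (0.0206) and without any single library (up to 0.0404). Without T12N2 Insig1 passed as well (0.031). The Fdps effect had itself changed since T30 (−2.07 ± 0.55, adjusted p = 0.0102), and so had that on Hmgcs1 (difference 1.33 ± 0.39, adjusted p = 0.0179), with 11.5% of all genes changing their effect. The change of Hmgcs1 was −0.78 at T30 and 0.55 at T36, where it did not pass, so a level above controls is not shown. The Hmgcs1 difference was lost without T30S1 or T36S1 (up to 0.0852) and against batch 1 controls (0.116), and Fdft1 passed without T6N3 or T30S3 (0.0352 at the lowest). From T27 to T30 no member changed its effect by this test (0.142% of all genes, smallest adjusted p = 0.438). Later, all 8 members were below their controls at T42 (median −0.56; 0% of genes called), above them at T48 (median 0.47; 0.015%), T54 (0.35; 0%) and T78 (0.61; 0%), and none passed at T42 or at any later time. Unadjusted p below 0.05 was reached by 3, 4, 1 and 7 members at T42, T48, T54 and T78, against 9.03%, 10.1%, 8.58% and 8.21% of all genes. Because members correlate strongly across mice in liver (median r 0.782), these shared directions and counts are not independent results. At T60, T66, T72, T192 and T198 it was reached by 1, 1, 0, 0 and 0 members, against 4.2%, 9.22%, 6.78%, 1.87% and 4.42%, with 0% of genes called after adjustment.

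The related lists showed other genes than the members in liver at T30, where 15.8% of all genes were called. The shares called in the enzyme, sensing and nonsterol lists lay below that. Of 12 other enzymes 1 was lower, the sterol desaturase gene Sc5d (−0.79 ± 0.18, adjusted p = 0.00216). Srebf1, the gene of the factor for fatty acid synthesis, was the 1 of 8 sensing genes called at T30, and was lower at T27 (−1.47 ± 0.31, adjusted p = 0.00427), T30 (−1.24 ± 0.28, adjusted p = 0.00168) and T36 (−1.21 ± 0.28, adjusted p = 0.00891, lost without T36S1 or T36S2 with p up to 0.146). Srebf2 did not pass at these times (smallest adjusted p = 0.345). Of 8 uptake genes 3 were lower, Npc1 (−0.70), Lipa (−0.49) and Vldlr (−0.98), with adjusted p of 0.00243, 0.00169 and 0.0416; without T30S1 the first 2 no longer passed (0.07 and 0.0817), and with the removed factor, or without any of T6N2, T6N3, T6N4, T30S1, T30S3 and T30S4, Vldlr did not (0.0616 and up to 0.176). Of 12 efflux and storage genes 3 were lower, the esterifier Soat2 (−0.98 ± 0.12, adjusted p = 3.14e-07) and the sterol exporters Abcg5 (−0.89, adjusted p = 0.000446) and Abcg8 (−0.72, adjusted p = 0.00987), and Nr1h3 was higher (0.40, adjusted p = 5.8e-05). Of 9 genes of the nonsterol branches 1 was higher, Nus1 (0.30, adjusted p = 0.0133), a call lost against batch 1 controls (0.1) and without T30S1 (0.0833). Hepatocyte markers were not called at T30 (0 of 5; 87470 to 97034 CPM summed after deprivation and 82231 to 100203 CPM in controls), nor were Kupffer, endothelial, stellate, cholangiocyte and erythroid markers (0 of 3 each). The cholangiocyte sum was apart between the groups, at 3.86 to 5.66 CPM after deprivation and 5.92 to 15.4 CPM in controls, and so was that of the 2 neuronal markers in the table, at 6.18 to 10.4 against 14.1 to 23.1 CPM with 1 called lower. Their part in the changes at T30 in liver was not tested.

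The effects in the 2 tissues were then compared by an interaction over 12194 genes, each effect made within its own table. Of the 8 members, 1 differed at T36 and 0 at T27, T30 and T42, against 4.55%, 2.12%, 12.2% and 0% of all genes. The member was Fdps at T36, with −0.30 in cortex and −1.85 in liver (difference 1.55 ± 0.43, adjusted p = 0.0232). With the mouse as a block the difference kept its size (adjusted p = 0.0303), and without T12N1, T36S1, T36S2 or T36S4 it no longer passed (up to 0.0684). Without T3N2 2 members passed at T27, Hmgcs1 (0.0256) and Fdft1 (0.0381). At T30 Insig1 had −0.74 in cortex and −0.59 in liver (difference −0.15, 95% interval −0.77 to 0.47). The pass of 7 members in cortex and 1 in liver at T30 is therefore not shown to be a difference between the tissues: the 95% intervals of the differences for Sqle and Cyp51, the 2 with the smallest p among the members at that time, were −1.20 to 0.08 and −0.74 to 0.11.

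Genes with the course most like the members were ranked by the correlation of their 17 group means with the mean course of the 8, as a description. In cortex the nearest were Mvk (r = 0.927), the kinase of mevalonate, Msmo1 (0.916), Mmab (0.899) and Nsdhl (0.890), followed by Triqk, Cetn3, Rnf141, Gm22389, Enox2 and Rdh11 (0.867 for the last). Those with the most opposite course were Dab1 (−0.950), the adaptor of reelin signalling, Btbd9 (−0.905) and Cyren (−0.879). In liver the nearest were Dhcr7 (0.915), Rdh11 (0.887), Mmab (0.886), Mvd (0.863), Tm7sf2 (0.848) and Sc5d (0.841), then Srxn1, Arl14ep, Nelfe and Zfp932, and the most opposite Wbp1l (−0.838), Wnk4 (−0.826) and Eef2 (−0.817). Mmab, an enzyme of cobalamin metabolism that lies next to Mvk in the genome, and Rdh11, a retinol dehydrogenase, were among the 10 nearest in both tissues. Members themselves ran together with the mean of the other 7 at r from 0.486 (Cyp51) to 0.952 (Hmgcs1) in cortex and from 0.581 (Fdps) to 0.884 (Fdft1) in liver.

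Deviations of single mice from their group were also compared between the members. Over the 62 mice, and after removing group means and the batch term, the 28 pairs of members correlated with r from 0.446 to 0.916 in liver (median 0.782) and from 0.103 to 0.773 in cortex (median 0.544). By permutation of mice within groups (100000 draws, p adjusted over all 64 relations computed), 28 pairs passed in liver and 19 in cortex. The strongest pair was Hmgcs1 with Fdft1 in liver (r = 0.916, rho = 0.911, adjusted permutation p = 1.9e-05 for both, the smallest these draws can give after adjustment, r = 0.903 without the 2 farthest mice, and 0.927 and 0.906 within batch 1 and 2). The cortex pairs that did not pass all held Fdps or Lss. Members of a library share its depth and normalisation, so part of such a correlation can be common to all genes. How many pairs of other genes would pass was not computed, so these counts are not shown to be particular to the pathway.

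Between the tissues of a mouse no correlation passed for 7 members, and that of Insig1 was below 0. A mouse with more Insig1 in cortex than its group tended to have less in liver: r = −0.609 and rho = −0.566 over 62 mice (two-sided permutation within groups, p = 7e-05 and 0.00012, adjusted over the 64 relations 0.00012 and 0.00019, and over the 8 genes compared between tissues 0.00056 for r). It was −0.544 without the 2 mice farthest from the median in cortex, −0.55 in batch 1 and −0.727 in batch 2, −0.572 in the 26 undisturbed and −0.649 in the 36 deprived mice, and −0.534 in the 50 mice outside the smaller levels of the removed liver factor. At T42, for example, the cortex libraries read 5.93, 5.43 and 5.41 and the liver libraries of the same mice 7.65, 8.96 and 9.13. Not every group showed this: at T30 the cortex libraries read 5.51, 5.45 and 5.34 and the liver libraries of the same mice 7.59, 8.11 and 7.38. None of the other 7 members passed (r from −0.139 to −0.0277, adjusted p from 0.37 to 0.87). Set beside all 12194 genes in both tables, whose median r was 0.0323, Insig1 had the lowest r, but the gene was not singled out in advance among them, and at a permutation p of 7e-05 chance would give about 0.85 genes of that number.

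**Figure D5:**
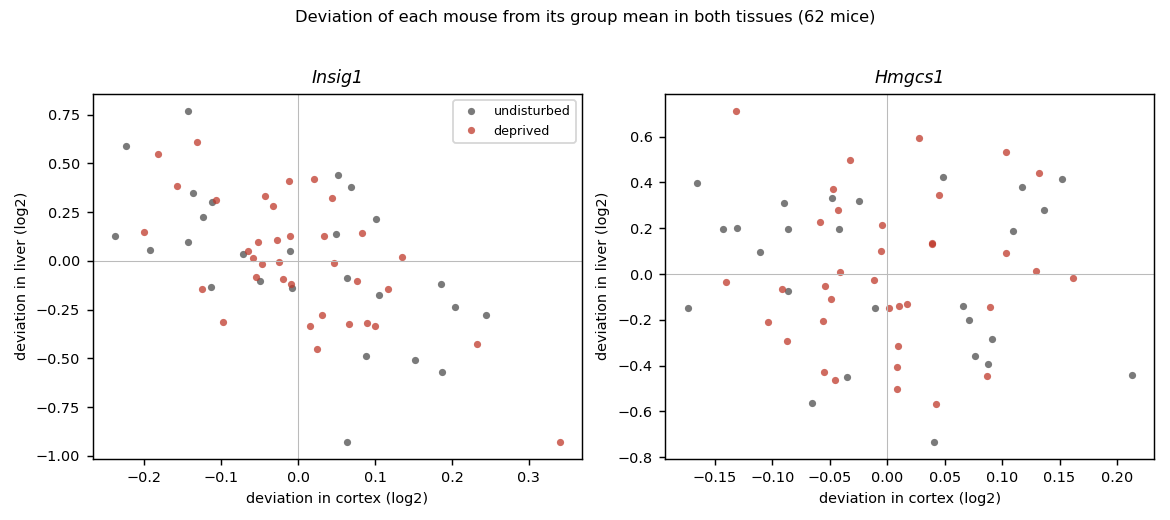
Deviation of each of the 62 mice from its group mean, after the batch term, in cortex (horizontal axis, log2) and in liver (vertical axis, log2) for Insig1 and Hmgcs1; grey points are undisturbed and red points deprived mice. For Insig1 the points run from upper left to lower right (r = −0.609), and for Hmgcs1 they form no slope (r = −0.0703).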

How the data were processed

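Each tissue has its own table of deposited log2 CPM, which the authors made from reads processed with fastp, STAR 2.7.0e and edgeR on mouse build GRCm38 (mm10), per the submitters' processing notes. The protocol text in the labels describes liver, and the cortex libraries are labelled as a re-analysis. Entries without a gene name (77 and 35, with 0.0618% and 0.0337% of the signal) were left out. Values were tested as deposited with limma 3.58.1 in R 4.3.3 (lmFit, trended eBayes), fitting the 17 groups of a tissue together, 62 libraries in all, with batch as covariate (44 residual degrees of freedom), two-sided, Benjamini-Hochberg over all named genes within a comparison, and an interaction over both tissues (88 degrees of freedom). The fit was tested on simulated data. Replicate numbers are mouse codes shared by the tissues, and deviations of a mouse correlated between its tissues over genes with a median of 0.03. The members, gene lists and markers were chosen with earlier results of these data known. Some genes of these lists are not reported here, and counts of the lists leave them out. Named beyond the members were sterol genes of the lists, up to 3 genes per list and tissue with the smallest p at T30, and the nearest and most opposite courses. Other list genes were named after their values were seen. Alternatives were median centring, a filter on the lowest 20% of genes, a pseudocount of 1, no batch term, same-batch controls, the liver factor, a mouse block and leaving out single libraries.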

Additional observations from a re-analysis of the deposited data

Results flagged for a closer look

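Among 64 sets of 4 to 10 undisturbed libraries (a member in a tissue at 1 time), 3 held a library far from the others, where chance flags about 1 in 20 sets. Lss in cortex at ZT0 was 5.30 in T0N9 and 5.42 in the next. Insig1 in cortex at ZT6 was 6.42 in J76N1 and 6.16 in the next. Fdft1 in liver at ZT6 was 6.53 in T6N3 and 7.08 in the next. The deprivation effect differed between tissues for Fdps at T36 (1.55). Between times, from T30 to T36, it differed in cortex for Sqle (0.28) and Insig1 (0.63), and in liver for Hmgcs1 (1.33) and Fdps (−2.07).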

How the results depend on the processing

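Of 176 results on single members, 16 changed their side of the threshold under another processing, 22 without a single library, and 0 changed direction with a call. The members passing in cortex went from 1 to 2 at T36 without the batch term and with same-batch controls, and from 0 to 4 (no batch term) or 1 (without the lowest 20% of genes) at T66. In cortex the fit without the batch term leaves the changes as they are and makes their p too small. With same-batch controls the effect changed from T30 to T36 for 1 member in cortex and 1 in liver (2 in both otherwise), 4 rather than 7 passed with time of day in liver, and 0 rather than 1 at T30 in liver. Without the lowest 20% of genes 0 rather than 1 member differed between tissues at T36, since Fdps was then not tested. Leaving out single libraries gave 1 to 2 members at T27, 5 to 7 at T30, 1 to 2 at T36 and 0 to 2 at T66 in cortex. It gave 0 to 2 at T27, 0 to 1 at T30 and 1 to 2 at T36 in liver, 0 to 1 (T30 minus T27) and 1 to 3 (T36 minus T30) effect changes in cortex and 1 to 3 (T36 minus T30) in liver. For tissue differences it gave 0 to 2 at T27 and 0 to 1 at T36. With the mouse as replicate block, the pairing of both tissues by animal, the Fdps difference at T36 was 1.55 (adjusted p = 0.0303) and 1 member was called, and no other call changed. The causes of these changes were not tested. Read depth per library is unknown, so no counting error can be given for low genes such as Fdps in cortex.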
